A study of Arabidopsis thaliana with 35 samples.

Results

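Shoots of water-treated *Arabidopsis thaliana* plants were compared between the 13th and the 10th day of a drought treatment, which covers the last 3 days of the time course. The comparison used 10 of the 35 RNA-seq libraries of the second RNA-seq analysis, 5 at 13 days after drought (DAD) and 5 at 10 DAD, and all 27417 genes of the count table were its members. In both groups the plants were of the Col-0 ecotype, were moved from MS medium to ceramic granular soil and stood for 3 days in trays of water without ethanol. According to the study, water was then added to adjust the pot weights, after which the plants were left unwatered. The study set these plants against plants that had received 10 mM ethanol instead. Their libraries at 13 and 10 DAD were used here only to ask whether the late step differed after ethanol, and 5 libraries of water-treated plants at 0 DAD gave the level before drought. The groups are therefore named for the days without water. Pot weights or plant water contents of these samples were not analysed here, and the hour of harvest is not given in the sources used here. The labels number 5 libraries per group but do not say whether each came from separate plants or pots, so the p-values measure the spread between these libraries.

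As background, drying soil raises the hormone abscisic acid (ABA) in the shoot. ABA binds receptors of the PYR/PYL/RCAR family, the bound receptors block clade A protein phosphatases of the 2C type (PP2C), and the SnRK2 kinases that these phosphatases hold in check then activate ABF transcription factors, which bind the ACGTG core of the ABA-responsive element in promoters. Known outputs in leaves are closed stomata, osmolytes such as proline and raffinose, and late embryogenesis abundant (LEA) proteins including dehydrins, which protect proteins and membranes from water loss, while genes of photosynthesis and growth are turned down.

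Total counts were 5036186 to 8172256 per library at 13 DAD and 4543437 to 6685402 at 10 DAD (exact permutation test, 2-sided, p = 0.262, n = 5 each). Chloroplast-encoded genes took 0.794% ± 0.127 of the counts at 13 DAD and 2.14% ± 0.282 at 10 DAD (SD, n = 5 each), and the 10 leading genes of each library 13.8% ± 1.11 and 10.8% ± 0.937 in the same order. For each of these shares the exact permutation test gave p = 0.00794, the smallest that 5 libraries against 5 allow, and an adjusted p of 0.0159 over 4 measures. The leading principal component held 82.1% of the variance and separated the days. The next component held 3.77% and ran within 10 DAD, with replicates 1 and 2 at 32.9 and 38.6 and replicates 4 and 5 at -29.1 and -36.4. On a further component of 2.72%, replicate 2 at 13 DAD stood at 52.7 and the other libraries of both days between -22.9 and 9.2. For genes named in the text, late-step calls lost without these libraries are given with the gene or in the closing sections. Markers of other organs were low on both days. The 12 root markers summed to 35.4 to 72.2 normalised counts per library at 13 DAD and 74.5 to 108 at 10 DAD, with 10 of the 12 too low to be tested, and the 10 flower and seed markers summed to 17.9 to 80.3 and 39.8 to 81.4 in the same order, with 9 too low. The 6 leaf markers summed to 12986 to 18925 at 13 DAD and 142048 to 282923 at 10 DAD. In bulk samples such as these, fewer cells of a type and less RNA per cell cannot be told apart.

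Between 13 and 10 DAD, 15856 genes passed the filter on low counts. In edgeR's quasi-likelihood test 6906 of these (43.6%) were called, which here means a false discovery rate (FDR) under 0.1 together with a change of 1 or more on the log2 scale, up or down. Of these, 2843 genes (17.9%) were higher at 13 DAD and 4063 (25.6%) were lower, while the median log2 fold change of all genes tested was -0.02. In 4428 genes (27.9%) every library at 13 DAD lay above every library at 10 DAD, and in 4292 genes (27.1%) every library lay below, so that the groups did not overlap in 8720 genes (55.0%). Changes of 5 or more on the log2 scale were reached by 170 genes upwards and by 89 genes downwards. Of the genes called higher, 42 had at most 3 counts in every library at 10 DAD, and of those called lower, 60 had at most 3 in every library at 13 DAD. With so large a share of genes called, a list of genes is read below against these percentages, and a list near them is no result about the list. Levels are deposited normalised counts, which are not divided by gene length, so levels are compared within a gene and not between genes.

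**Figure D1:**
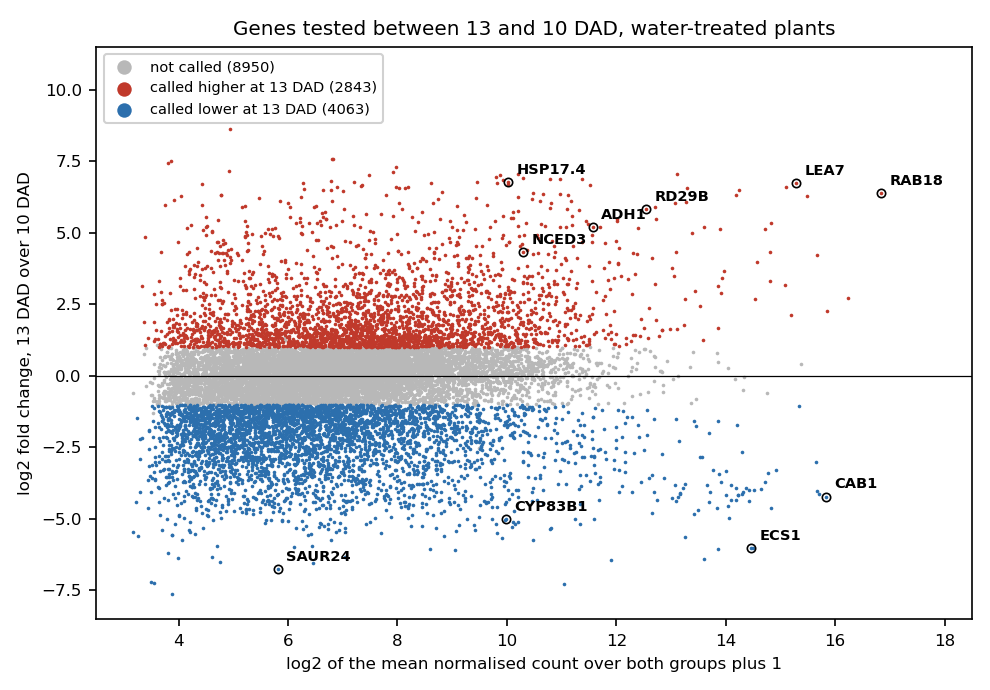
Each point is a gene tested between 13 and 10 DAD in water-treated plants, with the log2 of its mean normalised count over both groups plus 1 on the horizontal axis and its log2 fold change on the vertical axis. Genes called higher (2843) and lower (4063) at 13 DAD are coloured, 8950 genes were not called, and circles name genes described in the text, RAB18 and LEA7 among the most abundant that rose and CAB1 among the most abundant that fell.

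ABA synthesis was the entry to the hormone pathway. NCED3 (AT3G14440, chr3:4831286-4834015, minus strand), which makes the 9-cis-epoxycarotenoid dioxygenase of the rate-limiting step, had 2141, 2147, 2849, 2276 and 2562 normalised counts at 13 DAD, against 102, 142, 132, 99.7 and 102 at 10 DAD. All 5 late libraries lay above the 5 earlier ones, a 20.8-fold difference (log2 fold change 4.33 ± 0.15 SE, adjusted p = 1.8e-15). AAO3, the aldehyde oxidase that finishes ABA, rose by 3.34 on the log2 scale and ABA3, which supplies its cofactor in active form, by 1.57. The genes of ABA breakdown moved in the same direction. CYP707A1, CYP707A4 and CYP707A3, hydroxylases that inactivate ABA, had log2 fold changes of 3.71, 2.1 and 1.29. Not every member rose. BGLU18, a glucosidase that releases ABA from its glucose ester, had 148 to 189 normalised counts at 13 DAD and 668 to 3974 at 10 DAD (log2 fold change -3.58). NCED4, a carotenoid cleavage enzyme of the same family, had 169.7, 152, 118, 146 and 174 at 13 DAD, against 3147, 3931, 5735, 5178 and 5413 at 10 DAD, 30.8-fold less in the late samples. In all, 6 of 11 tested members of the list of 15 rose and 2 fell, with a median log2 fold change of 1.29.

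The later layers of the ABA pathway moved in different directions. Among the receptors, 7 of 14 were expressed enough to be tested, none rose and 4 fell. PYL4 had 25.3, 36.6, 25.6, 19.7 and 34.7 normalised counts at 13 DAD, against 222, 181, 237, 308 and 207 at 10 DAD (8.15-fold lower, adjusted p = 4.45e-11), and RCAR3, RCAR1 and PYL1 fell by 2.7, 1.35 and 1.45 on the log2 scale. PYR1, PYL5 and PYL7 were not called, with log2 fold changes of -0.44, 0.05 and 0.38. The phosphatases went the other way, and all 9 clade A PP2C genes rose with a median of 3.79. HAI1 (AT5G59220, chr5:23894404-23896939, minus strand) had 7932, 9610, 7717, 7116 and 7810 normalised counts at 13 DAD, against 179, 191, 192, 214 and 143 at 10 DAD. The groups were far apart, with a log2 fold change of 5.4 ± 0.15 (SE, adjusted p = 1.65e-16). AHG1 and HAI3 followed with 5.21 and 4.79, ABI2, HAI2 and HAB1 with 4.26, 3.79 and 3.51, and PP2CA, ABI1 and HAB2 with 2.8, 2.06 and 1.79. Among kinases and transcription factors, OST1, the SnRK2 kinase of guard cells, rose by 1.68, ABF2 by 3.19, ABI5 by 1.18 and ABF4 by 1.05. SNRK2.2 fell by 1.09 and ABF1 by 1.63. SNRK2.3 and ABF3 had -0.41 and 0.84 and were not called. Without replicates 1 and 2 at 10 DAD, a choice made after seeing the data, ABI5 and ABF4 came to 0.99 and 1.0 and the number of risen members of this list dropped to 2 of the 4.

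**Figure D2:**
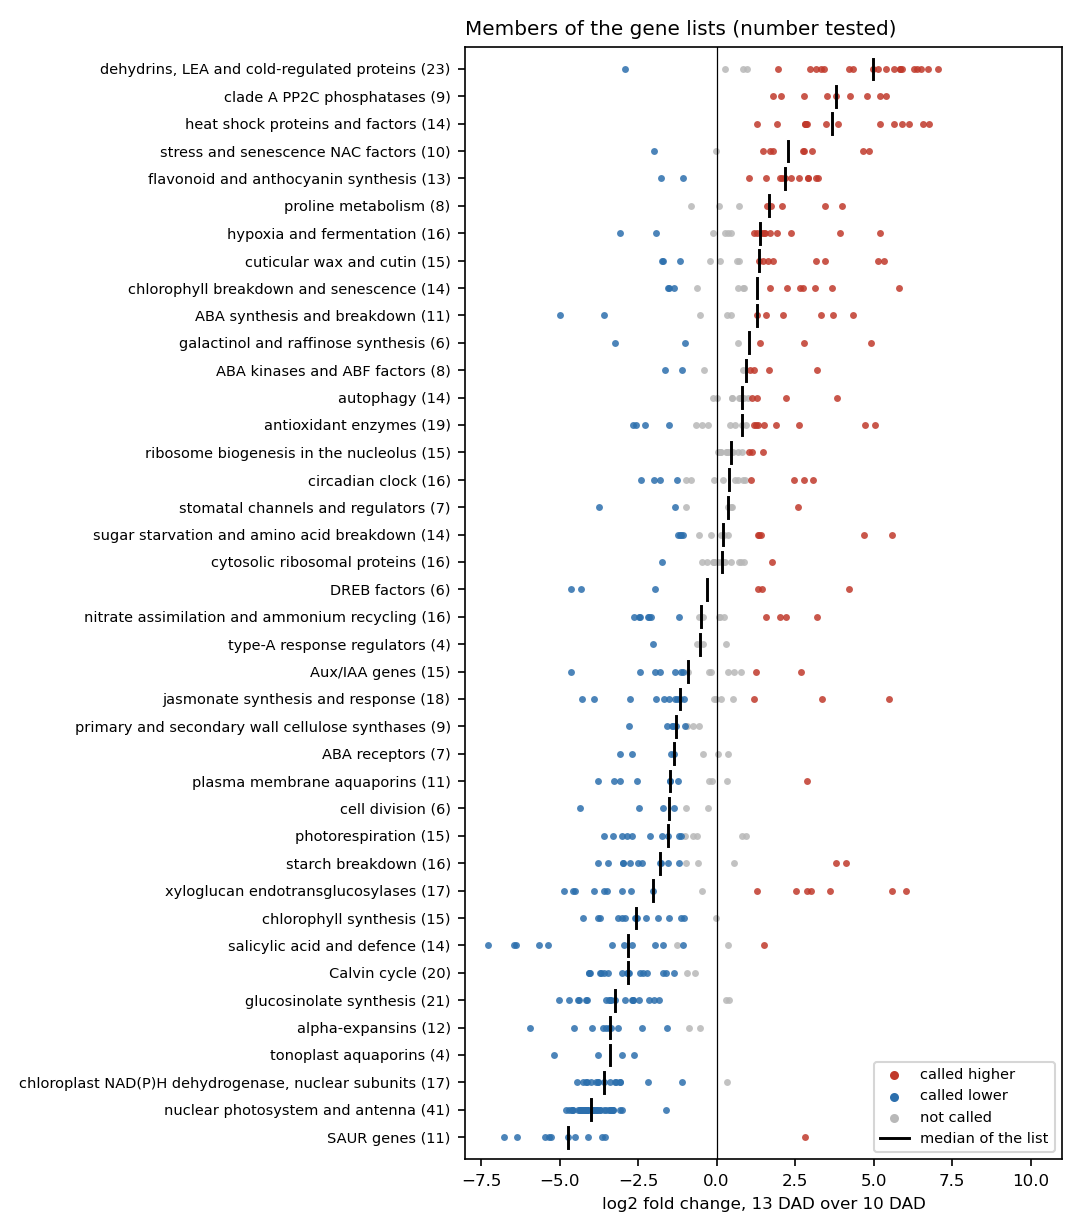
Every tested member of each gene list is a point at its log2 fold change, 13 over 10 DAD, in water-treated plants. Red points were called higher, blue lower and grey were not called, black ticks mark the list medians, and the number tested stands beside each name. The median was 4.98 for dehydrins, LEA and cold-regulated proteins and -3.99 for nuclear photosystem and antenna genes, and that of SAUR genes was -4.73, or -3.79 with 4 members at a floor of 3 counts per library.

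LEA and cold-regulated genes formed the list with the highest median (4.98 over 23 tested of 25), with 19 members higher and 1 lower. RAB18 (AT5G66400, chr5:26518277-26519447, minus strand), a dehydrin induced by ABA, had 188085, 281922, 224309, 263200 and 199918 normalised counts at 13 DAD, against 2463, 2494, 2901, 2779 and 2649 at 10 DAD. Its mean was 231487 ± 40253 at 13 DAD and 2657 ± 186 at 10 DAD (SD, n = 5 each), an 87.1-fold difference with a log2 fold change of 6.39 ± 0.17 (SE, adjusted p = 6.88e-17). It was the most abundant transcript by count at 13 DAD, while its range of 2463 to 2901 at 10 DAD stood near the 1798 to 2198 of 0 DAD. LEA7 (AT1G52690, chr1:19619724-19621534, plus strand), a LEA protein the study names, had 65554, 97505, 77547, 80605 and 73377 at 13 DAD, against 654, 778, 759, 756 and 617 at 10 DAD. That is 111-fold more, with no overlap (log2 fold change 6.74 ± 0.17 SE, adjusted p = 4.1e-17). LEA18 had the largest change of the list, with 2013, 2805, 2310, 2460 and 2113 at 13 DAD and 17.57, 19.1, 25.1, 14.7 and 6.73 at 10 DAD (7.06). LTI30, another dehydrin, had 76897 to 106207 and 966 to 1389 on the same days (6.29). LTI65, better known as RD29B, had 10504, 13144, 11805, 12460 and 10870 at 13 DAD, against 205, 172, 198, 227 and 189.9 at 10 DAD (5.83). Its neighbour LTI78, or RD29A, rose less, to 17853 to 21332 at 13 DAD, against 1801 to 3155 at 10 DAD (2.97). The neighbouring copies of KIN and COR15 split. KIN1 had 31647 to 45915 at 13 DAD and 349 to 464 at 10 DAD (6.51), whereas KIN2 had 15033 to 20937 and 10997 to 19579 and was not called (0.28). COR15A, which protects chloroplast membranes on freezing, had 92411 to 107842 at 13 DAD and 3610 to 5985 at 10 DAD (4.22), while COR15B had 376 to 672 and 3255 to 4458 (-2.93). No near-identical copy at 95% identity was found for any of these 4 genes. EM1 and GEA6, LEA genes known from maturing seed, and XERO1 also rose, by 5.65, 5.4 and 5.84. The seed storage genes among the flower and seed markers were too low to be tested on either day.

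The promoters of these genes were read beside those of the photosynthesis genes, because the ACGTG core bound by ABF factors is the element the pathway ends on. The 250 bases before the annotated start are shown for 4 genes that rose and 2 that fell (RefSeq, TAIR10.1), in lower case with every ACGTG and its reverse complement CACGT in capitals. The windows are chr1:19619474-19619723 on the plus strand for LEA7, chr5:21236771-21237020 on the plus strand for LTI65, chr5:26519448-26519697 on the minus strand for RAB18, chr3:18940393-18940642 on the plus strand for LTI30, chr1:10477635-10477884 on the plus strand for CAB1 and chr2:14523569-14523818 on the minus strand for LHB1B2. The windows of RAB18 and LTI30 also overlap the neighbouring genes AT5G66410 and AT3G50960.
LEA7: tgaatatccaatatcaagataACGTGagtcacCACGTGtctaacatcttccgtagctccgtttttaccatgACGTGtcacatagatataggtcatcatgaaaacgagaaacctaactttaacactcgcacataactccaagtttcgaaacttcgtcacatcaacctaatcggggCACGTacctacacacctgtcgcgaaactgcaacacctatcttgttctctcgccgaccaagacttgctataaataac
LTI65: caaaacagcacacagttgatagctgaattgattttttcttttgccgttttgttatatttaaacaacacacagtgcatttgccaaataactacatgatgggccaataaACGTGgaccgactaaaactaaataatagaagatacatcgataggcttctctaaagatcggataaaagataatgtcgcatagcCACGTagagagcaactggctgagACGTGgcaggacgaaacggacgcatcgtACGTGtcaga
RAB18: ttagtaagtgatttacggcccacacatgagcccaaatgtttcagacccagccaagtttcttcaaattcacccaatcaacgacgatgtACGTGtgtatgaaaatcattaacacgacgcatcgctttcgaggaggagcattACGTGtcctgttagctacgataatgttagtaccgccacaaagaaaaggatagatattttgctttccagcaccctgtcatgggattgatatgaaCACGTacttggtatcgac
LTI30: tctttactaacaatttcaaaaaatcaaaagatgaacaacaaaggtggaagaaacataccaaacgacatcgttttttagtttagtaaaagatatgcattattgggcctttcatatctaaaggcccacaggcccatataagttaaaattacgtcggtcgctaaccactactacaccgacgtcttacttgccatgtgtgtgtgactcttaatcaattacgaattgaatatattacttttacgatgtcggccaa
CAB1: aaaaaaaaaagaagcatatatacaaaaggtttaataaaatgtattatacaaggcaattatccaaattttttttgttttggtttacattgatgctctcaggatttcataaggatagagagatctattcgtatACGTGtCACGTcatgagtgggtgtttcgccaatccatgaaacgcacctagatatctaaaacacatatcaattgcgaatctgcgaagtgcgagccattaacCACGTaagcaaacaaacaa
LHB1B2: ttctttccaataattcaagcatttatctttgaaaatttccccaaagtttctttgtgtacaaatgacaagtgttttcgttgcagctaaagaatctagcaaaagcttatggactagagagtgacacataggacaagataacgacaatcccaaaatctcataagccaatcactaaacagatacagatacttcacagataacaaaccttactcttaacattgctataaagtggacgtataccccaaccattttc
LEA7 held 5 matches in this count over both strands, LTI65 4, RAB18 3 and LTI30 0. Of the cores of the dehydration-responsive element (ACCGAC or GCCGAC on either strand), LTI30 held 3 matches, LEA7 and LTI65 held 1 each, and RAB18, CAB1 and LHB1B2 held 0. Of the genes that fell, CAB1 held 3 matches of ACGTG or CACGT and LHB1B2 held 0. Over the 15696 promoters of tested genes, ACGTG or CACGT stood in 35% of 2818 promoters of genes higher at 13 DAD, 21.5% of 4003 of genes lower and 22% of 8875 not called, against 24.2% of all. At least 2 matches stood in 17.5%, 8.79% and 8.99% of the same groups and in 10.5% of all. CACGTG, as in LEA7, holds both ACGTG and CACGT and counts as 2 matches, so 2 matches can be a single site. In percentage points the other motifs differed less between higher and lower genes, but they were also rarer. Relative to its share in lower genes, the rarer core of the dehydration-responsive element differed more than the core bound by ABF factors. No motif is therefore ranked above the others here. ACCGAC stood in 6.96% of promoters of higher and 4.8% of lower genes (5.58% of all), and GCCGAC in 3.83% and 2.1% (3.07% of all). GATAAG, an element known from light-regulated genes, stood in 12.3% and 14.7% (12.7% of all), and GAANNTTC, the core of heat shock elements, in 9.62% and 8.54% (9.14% of all). AAACCCT, known from genes of translation, stood in 4.54% and 5.02% (6.1% of all). These are matches of letters on both strands in a fixed window and are given as descriptions.

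Among the transcription factors of the drought response, DREB genes moved in both directions and most NAC genes rose. DREB2A, which activates drought and heat genes, had 607, 1537, 848, 1144 and 842 normalised counts at 13 DAD, against 53.9, 33.4, 49.1, 54.5 and 64.6 at 10 DAD (19.5-fold, adjusted p = 1.05e-10). DREB2B and DREB2C rose by 1.46 and 1.32, and DREB2C stood at 0.92 (adjusted p = 0.176) without replicate 3 at 13 DAD. Of the DREB1 genes known from cold, 3 were lower. DREB1A had 97.5, 50.5, 100, 83.1 and 110.4 at 13 DAD, against 208, 232, 319, 390.3 and 540.0 at 10 DAD (-1.97). CBF2 (DREB1C) had 1.05 to 6.02 and 60.9 to 139.5 and CBF1 (DREB1B) 0 to 5.64 and 12.9 to 68.7 on the same days, changes of -4.62 and -4.33. CBF4 (DREB1D), a member of the same group, went the other way, with 7.04 to 26.5 at 13 DAD and 0 in every library at 10 DAD, but had too few counts to be tested. All 6 tested DREB genes were thus called, 3 in each direction. Of the 10 tested stress and senescence NAC factors, 8 rose. RD26, an ABA-induced NAC, had 6631, 8000, 6310, 6644 and 6405 at 13 DAD, against 229.5, 221, 250.5, 276 and 331 at 10 DAD (26-fold, adjusted p = 5.79e-16). NAC032 rose by 4.84 and NAC019, ATAF1 and NAC3 (ANAC055) by 3.03, 2.79 and 2.76. NAP and NAC6 (ORE1), which promote leaf senescence, rose by 1.47 and 1.7. NAC042 fell by 1.98, and ATAF2 had -0.03 and was not called.

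Osmolyte genes followed. P5CS1 (AT2G39800, chr2:16598072-16603319, minus strand), the rate-limiting enzyme of proline synthesis under stress, had 7743, 6813, 6974, 7467 and 7505 normalised counts at 13 DAD, against 898, 716, 799.5, 376 and 455 at 10 DAD. The difference was 11.2-fold (log2 fold change 3.44 ± 0.21 SE, adjusted p = 6.02e-11), and replicates 4 and 5 were the low samples at 10 DAD. P5CS2, its paralog known for housekeeping proline synthesis, had 5698 to 8416 and 381 to 460.3 on the same days (4.0). P5CR, the next enzyme, rose by 1.62. ERD5, the proline dehydrogenase that starts proline breakdown, had 203, 457, 281, 258 and 192 at 13 DAD, against 43.3, 47.7, 64.7, 130.1 and 110.4 at 10 DAD (1.74), and ALDH12A1, the following step of breakdown, rose by 2.09. Genes of both synthesis and breakdown were thus higher, 5 of 8 tested, and none was called lower. In raffinose synthesis the galactinol synthases split. GolS4 had 47, 142, 129, 111 and 74.6 at 13 DAD, against 0, 0, 0, 13.6 and 0 at 10 DAD, with only replicate 4 above 0 on the earlier day. GolS2, known from drought, had 2637, 3563, 3085, 2328 and 2651 at 13 DAD and 536, 549, 1099, 1601 and 1458 at 10 DAD (1.39, and 0.98 without replicates 1 and 2 at 10 DAD). GolS3, known from cold and named by the study, had 34.9, 45.5, 56.2, 31 and 46.2 at 13 DAD, against 278, 251, 471, 398 and 558 at 10 DAD (9.14-fold lower, adjusted p = 4.57e-10). SIP1, a raffinose synthase, rose by 2.8, DIN10 fell by 1.02 and GolS1 had 0.67 and was not called.

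**Figure D3:**
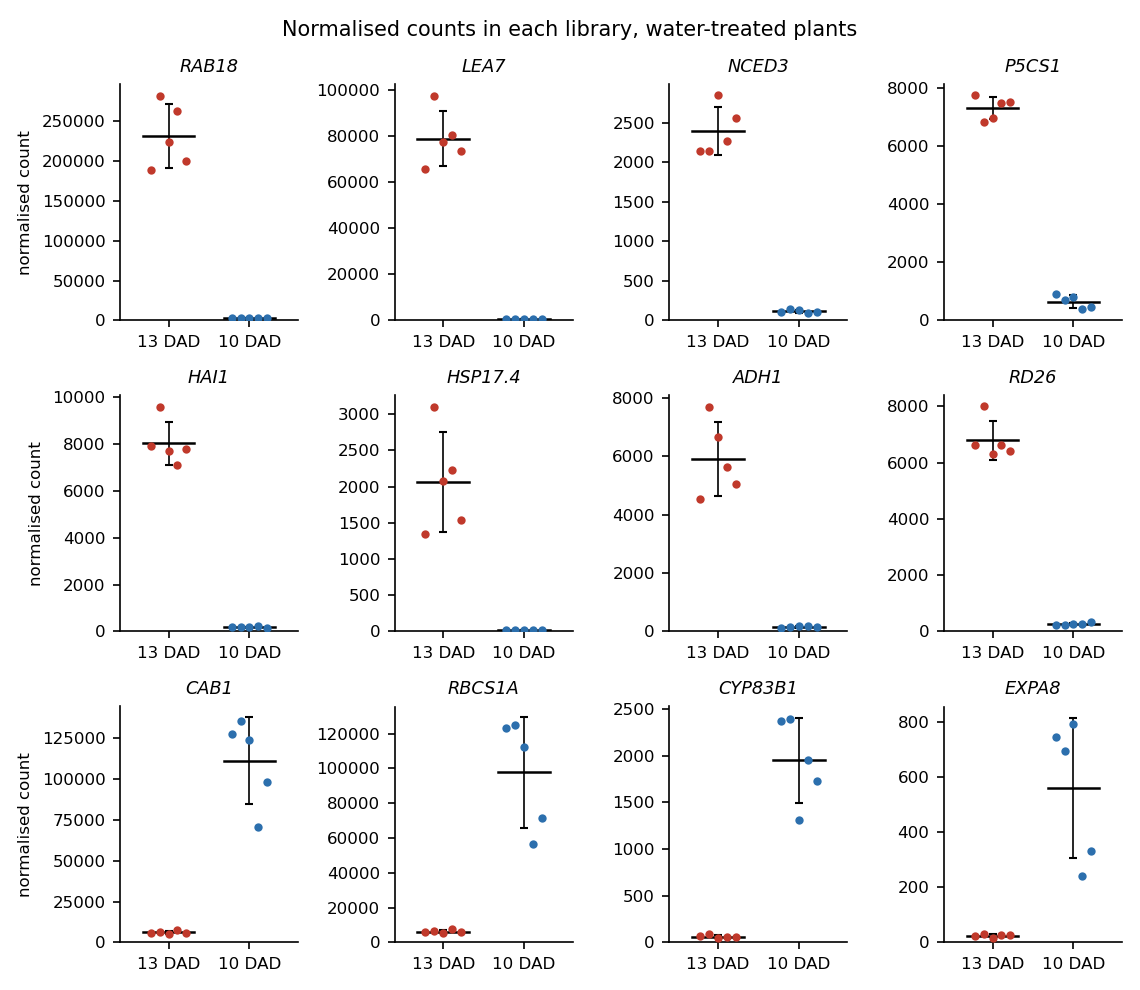
Normalised counts of 12 genes in each library of water-treated plants, 13 DAD left and 10 DAD right in each panel, on linear axes that start at 0. Points are libraries, horizontal lines the means and bars the SD (n = 5 each). RAB18, LEA7, NCED3, P5CS1, HAI1, HSP17.4, ADH1 and RD26 lie higher at 13 DAD and CAB1, RBCS1A, CYP83B1 and EXPA8 lower, with no overlap between the days in any of the 12.

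Heat shock genes, the chaperones and the factors that induce them, were higher without exception. All 14 tested of 19 rose, with a median of 3.69 (3.39 with 1 member taken at a floor of 3 counts per library). HSP17.4 (AT3G46230, chr3:16984118-16984867, minus strand), a small chaperone of the cytosol, had 1343, 3105, 2073, 2236 and 1542 normalised counts at 13 DAD, against 17.57, 20.7, 17.7, 16.8 and 17.5 at 10 DAD. This was 114-fold more (adjusted p = 1.5e-14), and replicate 2 was the highest late library. HSP17.6A and ATHSP22.0 rose by 6.57 and 6.12, HSP21 of the chloroplast by 5.89 and HSP70 (AT3G12580) by 5.21. Of the regulators, HSFA6A had 265 to 366 at 13 DAD and 2.09 to 13.5 at 10 DAD (5.65) and MBF1C rose by 2.81. HSFA2 had 12 to 70.8 at 13 DAD and 0 to 3.13 at 10 DAD and was called higher. The antioxidant list was mixed, with 8 of 19 higher and 4 lower, beside 17.9% and 25.6% of all genes. APX2, a cytosolic ascorbate peroxidase, had 48.1, 37.9, 40.9, 32.4 and 70.4 at 13 DAD, against 0, 1.59, 3.13, 1.05 and 0 at 10 DAD, too few for a fold, and no library overlapped. STZ (ZAT10), a zinc finger regulator of the oxidative response, had 2611 to 5201 and 98.1 to 183 (4.73), and RHL41 (ZAT12) rose by 2.62. Catalases differed, with CAT1 1.9, CAT3 -2.65 and CAT2 0.94, the last not called. The members that fell besides CAT3 were TAPX, FSD1 and CSD2, enzymes of the chloroplast, at -2.55, -2.29 and -1.53.

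Fermentation genes, through which ethanol is made and removed, did not move together. ADH1 (AT1G77120, chr1:28975255-28977417, plus strand), the alcohol dehydrogenase, had 4521, 7704, 6662, 5618 and 5055 normalised counts at 13 DAD, against 124, 148, 172, 185 and 144 at 10 DAD. The difference was 38.2-fold (log2 fold change 5.2 ± 0.18 SE, adjusted p = 1.45e-15) in plants that had not been given ethanol. SUS1, a sucrose synthase, had 2917 to 5183 and 237 to 247 on the same days (3.93). PDC2, a pyruvate decarboxylase that feeds ADH1, was lower, with 309, 350.0, 297, 311 and 294 at 13 DAD, against 1459, 1613, 742, 1157 and 819 at 10 DAD (-1.94). The aldehyde dehydrogenases that turn acetaldehyde to acetate divided, ALDH2B7 and ALDH2B4 rising by 2.38 and 1.93 and ALDH2C4 at -0.12 without a call. EBP (RAP2.3), a group VII ethylene response factor of the kind that senses low oxygen, had 376, 816, 464, 579 and 458 at 13 DAD, against 4448, 3767, 5282, 4045 and 4095 at 10 DAD (8.03-fold lower). RAP2.12 had 1.51, but it shares a near-identical stretch with AT1G53887 and its counts are uncertain. Over the hypoxia and fermentation list, 10 of 16 tested rose and 2 fell.

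In carbon and nitrogen metabolism, members of 1 family often moved in opposite directions. In starch breakdown 11 of 16 tested fell, including CT-BMY (BAM3), the chloroplast beta-amylase of the night, with 66.2, 112, 88.6, 166 and 117 normalised counts at 13 DAD, against 1148, 1290, 1295, 1674 and 1837 at 10 DAD (-3.78). The starch-phosphorylating enzyme SEX1 fell by 2.76. BAM1, a beta-amylase known from guard cells and drought, had 9483, 16293, 10929, 13209 and 10736 at 13 DAD, against 547, 631, 666, 774 and 753 at 10 DAD (18-fold), and AMY1, a secreted alpha-amylase, rose by 3.8. These were the 2 members that rose. Among sugar starvation and amino acid breakdown genes, 5 of 14 rose and 4 fell, beside 17.9% and 25.6% of all genes. Their median was 0.19. DIN2, a beta-glucosidase of dark-kept leaves, rose by 5.58 and AT4G33150, the bifunctional enzyme of lysine breakdown, had 7037 to 8304 at 13 DAD and 233 to 374 at 10 DAD (4.71). ASN1 and DYL1, dormancy and dark markers, had 0.24 and 0.37 and were not called. In nitrogen metabolism 4 of 16 rose and 7 fell. NRT1.5 and NRT1.7, nitrate transporters of xylem and phloem, rose by 3.2 and 2.2 and GLN1.3, a cytosolic glutamine synthetase, by 2.03, whereas the chloroplast enzymes GS2 and GLU1 fell by 2.15 and 2.45. Of 14 autophagy genes 4 rose and none fell, so that a smaller share was called than the 43.6% of all genes. ATG8H led with 1718 to 3716 at 13 DAD and 146 to 182 at 10 DAD (3.83). The other 3 were APG7, APG8A and APG5.

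Photosynthesis genes were lower as whole lists. All 41 nuclear photosystem and antenna genes fell, none of them overlapping between the days, with a median of -3.99 and a range from -4.79 to -1.61. CAB1 (AT1G29930, chr1:10477885-10479114, plus strand), a protein of the light-harvesting antenna, had 5992, 6384, 5203, 7447 and 5897 normalised counts at 13 DAD, against 127557, 135130, 123699, 70515 and 98276 at 10 DAD. It was 17.9-fold lower (log2 fold change -4.22 ± 0.18 SE, adjusted p = 3.88e-14), and replicates 4 and 5 were already the lowest at 10 DAD. CAB1, CAB2 and CAB3 are near-identical copies, so their reads may be split among them. LHB1B2, another antenna gene, had 4419 to 8695 at 13 DAD and 78693 to 115666 at 10 DAD (-4.12). PSBR and LHCA4, the other photosystem genes among the most abundant at 10 DAD, fell by 3.01 and 3.29. Of 17 nuclear subunits of the chloroplast NAD(P)H dehydrogenase, which returns electrons to the photosystem chain, 16 fell with a list median of -3.58, led by NdhM, with 26.4 to 39.5 and 508 to 798 on the same days. NdhT had 0.33 and was not called. In the Calvin cycle 18 of 20 fell (median -2.83). RBCS1A (AT1G67090, chr1:25048158-25049667, minus strand), the main small subunit of Rubisco, had 6052, 6448, 5137, 7615 and 5835 at 13 DAD, against 123317, 124856, 112364, 56283 and 71525 at 10 DAD (15.7-fold lower, adjusted p = 9.71e-12). RCA, the Rubisco activase, fell by 2.83, while CP12-1 and RPE had -0.95 and -0.68 and were not called.

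Photorespiration genes fell in 10 of 15 tested. PMDH2, a peroxisomal malate dehydrogenase named by the study, had 951, 751, 589.6, 823 and 966 normalised counts at 13 DAD, against 6793, 8478, 8768, 6035 and 8494 at 10 DAD (9.45-fold lower, adjusted p = 2.57e-13), but PMDH1 had 0.82 and was not called. Chlorophyll synthesis genes fell in 14 of 15, with PORA, PORB and CHLM at -4.25, -3.77 and -3.72 and a median of -2.55. Chlorophyll breakdown and senescence genes were mixed, 7 of 14 higher and 3 lower, beside 17.9% and 25.6% of all genes. SAG29, a sugar transporter of senescing leaves, had 5560, 3307, 5285, 5853 and 5064 at 13 DAD, against 51.5, 87.5, 130.5, 75.5 and 88.9 at 10 DAD (57.8-fold). NYE1 and AT4G11910, proteins that dismantle chlorophyll, rose by 2.23 and 3.15 and ACD1, the pheophorbide oxygenase, by 2.65, while ACD2, the step after it, fell by 1.5. SAG12, the protease used as the marker of developmental senescence, had 586, 82.1, 267, 189 and 208 at 13 DAD, against 30.4, 212, 42.8, 80.8 and 41.7 at 10 DAD, and these groups overlapped (log2 fold change 1.71, adjusted p = 0.0506, and 0.103 and 0.105 without replicate 1 or replicate 3 at 10 DAD). SAG101 and WRKY53 fell by 1.56 and 1.36.

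Genes of cell expansion were mostly lower. Alpha-expansins, which loosen the wall, fell in 10 of 12 tested (median -3.39). EXPA8 had 24.1, 30.3, 16.2, 26.8 and 27.3 normalised counts at 13 DAD, against 742, 693, 792, 239 and 333 at 10 DAD (22.4-fold lower), with replicates 4 and 5 below the others at 10 DAD. EXPA16 fell to 0 to 1.41 at 13 DAD, against 13.6 to 67.3 at 10 DAD. EXPA9 and EXPA15 had -0.53 and -0.88 and were not called. The xyloglucan endotransglucosylases, which cut and rejoin wall polymers, split into 9 lower and 7 higher of 17 tested. XTH6 had 16.9 to 47 at 13 DAD and 569 to 951 at 10 DAD (-4.86), and XTH31 and XTH7 fell by 4.58 and 4.51. TCH4 (XTH22), a touch- and stress-induced member, had 3486, 6336, 3844, 4868 and 4300 at 13 DAD, against 98.4, 90.7, 104, 82.9 and 78.1 at 10 DAD (50.2-fold), and XTH25 and XTH11 rose by 6.03 and 3.61. Of 9 tested cellulose synthase genes 6 fell and none rose, with CESA2 at -2.78.

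Among the water channels more genes fell than rose. Of the 11 plasma membrane aquaporins 7 fell, with PIP2B, PIP1;5 and PIP2;8 at -3.76, -3.26 and -3.07. PIP1;4 alone was called higher, with 7503, 9690, 8808, 10135 and 8172 normalised counts at 13 DAD, against 1299, 1135, 1266, 1050 and 1106 at 10 DAD (7.57-fold, adjusted p = 7.98e-14). All 4 tested tonoplast aquaporins fell. TIP2;2 had 57.8, 67, 71.6, 49.3 and 66.2 at 13 DAD, against 2047, 2389, 2697, 1618 and 2312 at 10 DAD (35.5-fold lower), and TIP2 (TIP1;2), DELTA-TIP and GAMMA-TIP fell by 3.79, 3.02 and 2.62.

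Hormone-response genes of growth differed between lists. SAUR genes, early auxin targets that promote expansion, fell in 10 of 11 tested (median -4.73, and -3.79 with 4 members taken at a floor of 3 counts per library). SAUR24 had 0 to 1.7 normalised counts at 13 DAD and 75.5 to 139 at 10 DAD. SAUR36, known from senescing leaves, rose by 2.83. Only 6 of the 22 cell division genes had enough counts to be tested. The D-type cyclin CYCD3;3 was called lower, with 0 to 3.79 normalised counts at 13 DAD, against 30.2 to 74.1 at 10 DAD. CYCD3;1, CYCD3;2 and SYP111 (KNOLLE), further D-type cyclins and a protein of the forming cell plate, fell by 2.47, 1.34 and 1.7. Of 15 tested Aux/IAA repressors of auxin signalling 7 fell and 2 rose, with IAA29 at -4.64 and IAA28 at 2.69. Of 4 type-A response regulators of cytokinin signalling only ARR7 was called (-2.01), beside the 25.6% of all genes that were lower, and ARR4, ARR9 and ARR6 had -0.63, -0.44 and 0.31. Genes of ribosome making stood near the middle of the range. Among 16 tested cytosolic ribosomal proteins 1 rose and 1 fell (median 0.17), and among 15 nucleolar biogenesis genes 3 rose (median 0.45).

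Secondary metabolism moved in opposite directions. Flavonoid and anthocyanin genes rose in 11 of 13 tested (median 2.18). The enzymes F3H, DFR and TT4 (chalcone synthase) rose by 3.24, 3.16 and 2.9. Of the regulators, MYB90 (PAP2) had 1286, 547, 1332, 814 and 1431 normalised counts at 13 DAD, against 102, 98.6, 117, 410.2 and 113 at 10 DAD (2.62), but it has a near-identical stretch in MYB114. PAP1 was lower, with 122, 24, 57.1, 64.8 and 122 at 13 DAD, against 102, 176, 238, 416 and 349 at 10 DAD (-1.77, adjusted p = 0.00954, groups overlapping). Glucosinolates are sulfur-rich defence compounds, and 19 of the 21 genes of their synthesis fell (median -3.25). CYP83B1 (AT4G31500, chr4:15273410-15275404, minus strand), an enzyme of the indolic branch, had 65, 85.9, 44.3, 62 and 57.8 at 13 DAD, against 2372, 2393, 1310, 1951 and 1732 at 10 DAD (31-fold lower, adjusted p = 2.4e-14). CYP83A1 of the aliphatic branch fell by 4.71, and the aliphatic regulators MYB29 and MYB28 had log2 fold changes of -4.42 and -2.92. The 2 members that were not called, TFL2 and OBP2, are regulators (0.31 and 0.4).

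In the jasmonate and the defence lists more genes fell than rose. In the jasmonate list 10 of 18 tested fell and 3 rose. LOX2, the lipoxygenase of jasmonate synthesis, had 129, 149, 63.9, 100 and 86.2 normalised counts at 13 DAD, against 2237, 3946, 1384, 1141 and 1235 at 10 DAD (-4.29). AOC2, a later enzyme, fell by 3.91, and MYC2, the central transcription factor, had 95.1, 53.1, 79.2, 73.3 and 61 at 13 DAD, against 302, 329, 195, 269.6 and 244 at 10 DAD (3.71-fold lower, adjusted p = 1.01e-08). JAZ7 and JAZ1, repressors of the pathway, rose by 5.5 and 3.36. In the salicylic acid and defence list 11 of 14 fell and 1 rose. EDS16, the isochorismate synthase of salicylic acid, and PAD4 and EDS1, its upstream regulators, fell by 2.95, 3.34 and 1.97. WRKY70 had 66.2, 51.8, 106, 80.3 and 83 at 13 DAD, against 530.5, 526, 463, 427 and 522 at 10 DAD (-2.7).

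The values of the defensins depended on 2 libraries. PDF1.2 (AT5G44420, chr5:17906968-17907638, minus strand), the marker of joint ethylene and jasmonate defence, had 196, 615, 193, 206 and 302 normalised counts at 13 DAD, against 77541, 43880, 339, 656 and 281 at 10 DAD. Replicates 1 and 2 at 10 DAD were high and the other 3 overlapped with 13 DAD. Its log2 fold change of -6.4 ± 1.91 (SE, adjusted p = 0.0157) became -0.58 (adjusted p = 0.31) without these 2 libraries, which were left out after seeing the data. PDF1.3 had 50.6, 118, 63.9, 53.5 and 159 at 13 DAD, against 26415, 11180, 77.2, 60.9 and 78.1 at 10 DAD, and its value of -6.45 became 0.24 (adjusted p = 0.551). PDF1.2c and PDF1.2b moved likewise, at -5.64 and -7.29 with all libraries and at 0.5 (adjusted p = 0.613) and -0.99 (adjusted p = 0.0581) without them. ORA59, the factor that drives these defensins, had 2.41, 5.05, 5.11, 8.45 and 4.21 at 13 DAD, against 420.4, 428, 50.1, 90.2 and 36.4 at 10 DAD (-5.36), so that it was lower also against the 3 lower libraries. Without the 2 libraries 6 members of the list fell rather than 11. PR1, the salicylic acid marker, had 89.1 to 251 and 35 to 892 and was not called (adjusted p = 0.227), and BGL2 (PR2) rose to 130.2 to 291 at 13 DAD, against 34.6 to 104 at 10 DAD (1.51).

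**Figure D4:**
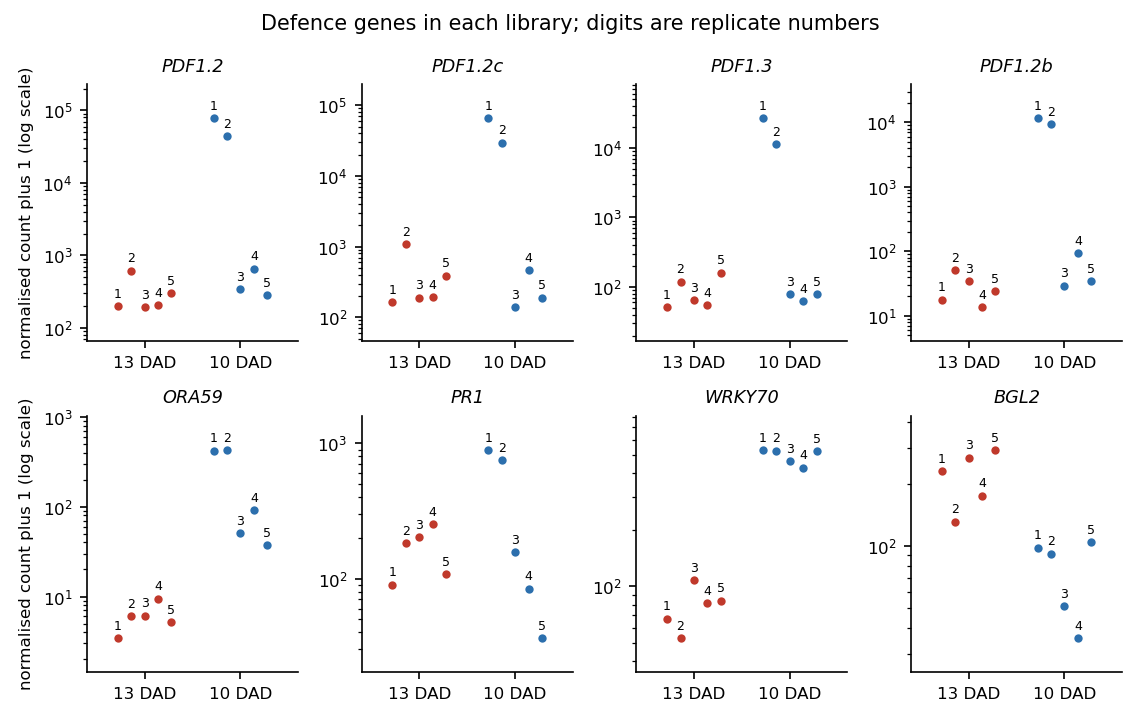
Normalised counts plus 1, on a log axis, of 8 defence genes in each library of water-treated plants, 13 DAD left and 10 DAD right, with each point labelled by its replicate number. Replicates 1 and 2 at 10 DAD stand apart in PDF1.2, PDF1.2c, PDF1.3, PDF1.2b and ORA59, while the 5 libraries of WRKY70 at 10 DAD lie together between 427 and 531.

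At the leaf surface, 8 of 15 tested wax and cutin genes rose and 3 fell. LTP4 and LTP3, lipid transfer proteins of the epidermis, had 47362 to 64972 and 38351 to 59865 normalised counts at 13 DAD, against 1117 to 1734 and 1228 to 1635 at 10 DAD, changes of 5.33 and 5.15. KCS2, an elongase of very long fatty acids, rose by 3.46, MYB96 and MYB94, activators of wax synthesis under drought, by 1.47 and 1.79, and CER2 and KCS1 fell by 1.69 and 1.16. Of 7 tested stomatal genes 1 rose and 2 fell, near the 43.6% of all genes that were called. GORK, the channel that lets potassium out of guard cells, had 149, 142, 187, 98.6 and 162 at 13 DAD, against 10.5, 17.5, 39.7, 38.8 and 8.08 at 10 DAD (2.59). MYB60, a guard cell factor linked to opening, had 3.41 to 16.4 and 85.9 to 147 (-3.74), FMA fell by 1.32, and KAT1, KAT2, HA1 and OZS1 (SLAC1) were not called, at 0.35, 0.5, 0.46 and -0.96.

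Among 16 clock genes 4 rose and 4 fell, so that 8 were called, near the background of 43.6%. CCA1 and LHY, paired factors of the morning, had 1117, 1275, 1160, 1030 and 997 and 514, 378, 580.2, 482 and 558 normalised counts at 13 DAD, against 173, 175, 194, 229 and 201 and 53.9, 39.8, 54.3, 64 and 72.7 at 10 DAD. These were log2 fold changes of 2.47 and 3.08, and RVE8, a related factor, rose by 2.78. The fourth that rose was AT5G64170, at 1.1 (0.94 and no call without replicates 1 and 2 at 10 DAD). PRR5, PRR3, PCL1 (LUX) and GI, genes of the afternoon and evening, fell by 1.99, 2.4, 1.8 and 1.25. TOC1 and PRR7 had -0.82 and -0.98 and were not called. The hour of harvest on each day is not given in the sources used here, and its part in these values was not tested.

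Outside the lists, the largest changes without overlap were ranked among genes averaging 20 or more counts. AT2G19320, an uncharacterised protein, had 0 counts in every library at 10 DAD and 22.9 to 93 normalised counts at 13 DAD, at least 16.3-fold more against a floor of 3 counts per library. SMP1, a seed maturation protein, and AT5G42510, a dirigent-like protein, had 181 to 294 and 204 to 252 at 13 DAD, against 0 to 3.13 and 0 to 2.34 at 10 DAD, and AT3G03240, a hydrolase, had 44.3 to 80.3 and 0 to 1.17. TSPO, a membrane protein of the tryptophan-rich sensory type, had 13047, 22985, 16770, 20695 and 14465 at 13 DAD, against 111, 116, 175, 128 and 104 at 10 DAD (7.06). AT1G05510, AT2G33520, AT1G04560 and AT4G31830, given here by their gene IDs, rose by 7.3, 7.14, 7.04 and 7.03. At the other end, ECS1, a secreted protein known from disease resistance tests, had 727, 709, 669, 726 and 751 at 13 DAD, against 43313, 47310, 48084, 37468 and 47185 at 10 DAD (62.4-fold lower, adjusted p = 4.1e-17). AT5G42530 and AT2G25510, both uncharacterised and abundant, had 635 to 838 and 389 to 493 at 13 DAD, against 33928 to 57576 and 19882 to 35124 at 10 DAD, changes of -6.02 and -6.05. PCR1 (PLANT CADMIUM RESISTANCE 1) and AACT1, annotated as an anthocyanin acyltransferase, fell by 6.04 and 6.32, although AACT1 ran from 16.7 to 636 within 10 DAD. AT5G35480, AT4G19430 and AT2G22122 fell by 6.1, 6.54 and 5.99, and AT5G06790, annotated as a cotton fiber protein, had 0 to 1.41 at 13 DAD and 39.7 to 59.7 at 10 DAD. Of the 5 most abundant transcripts at 13 DAD, RAB18, COR15A and LTI30 are given above. GRP-3, a glycine-rich protein, had 75912 to 130608 at 13 DAD and 16792 to 22112 at 10 DAD (2.28). The remaining gene, AT1G07590 (105634 to 193936 and 15764 to 22573), overlaps the metallothionein gene MT1A on the same strand, the ratio of their counts was 3.25 to 3.31 at 13 DAD and 3.07 to 3.22 at 10 DAD, and their reads cannot be told apart.

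Levels at 0 DAD placed the late step in the whole course. The step from 10 to 13 DAD was larger than that from 0 to 10 DAD in the rising genes plotted. NCED3 ranged over 49.9 to 84.2 normalised counts at 0 DAD, 99.7 to 142 at 10 DAD and 2141 to 2849 at 13 DAD, and RD29A over 578 to 1150, 1801 to 3155 and 17853 to 21332 on the same days. CCA1 was 87.1 to 110.0 at 0 DAD, and thus stepped upwards on each day. Some genes reversed. GolS3 had 46.2 to 267 at 0 DAD, 251 to 558 at 10 DAD and 31 to 56.2 at 13 DAD, DREB1A 62.5 to 163, 208 to 540.0 and 50.5 to 110.4, EBP 415 to 768, 3767 to 5282 and 376 to 816 and ECS1 12877 to 18887, 37468 to 48084 and 669 to 751. All 4 were lower at 13 than at 10 DAD. The photosynthesis genes CAB1 and RBCS1A had 132636 to 173130 and 200789 to 252073 at 0 DAD, so that CAB1 at 10 DAD overlapped with its level before drought and RBCS1A did not. DELTA-TIP and XTH9 had 6886 to 10089 and 950.1 to 2153 at 0 DAD, 517 to 1978 and 208 to 691 at 10 DAD and 118 to 166 and 33.7 to 49.3 at 13 DAD. These levels are a description, with no test against 0 DAD.

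**Figure D5:**
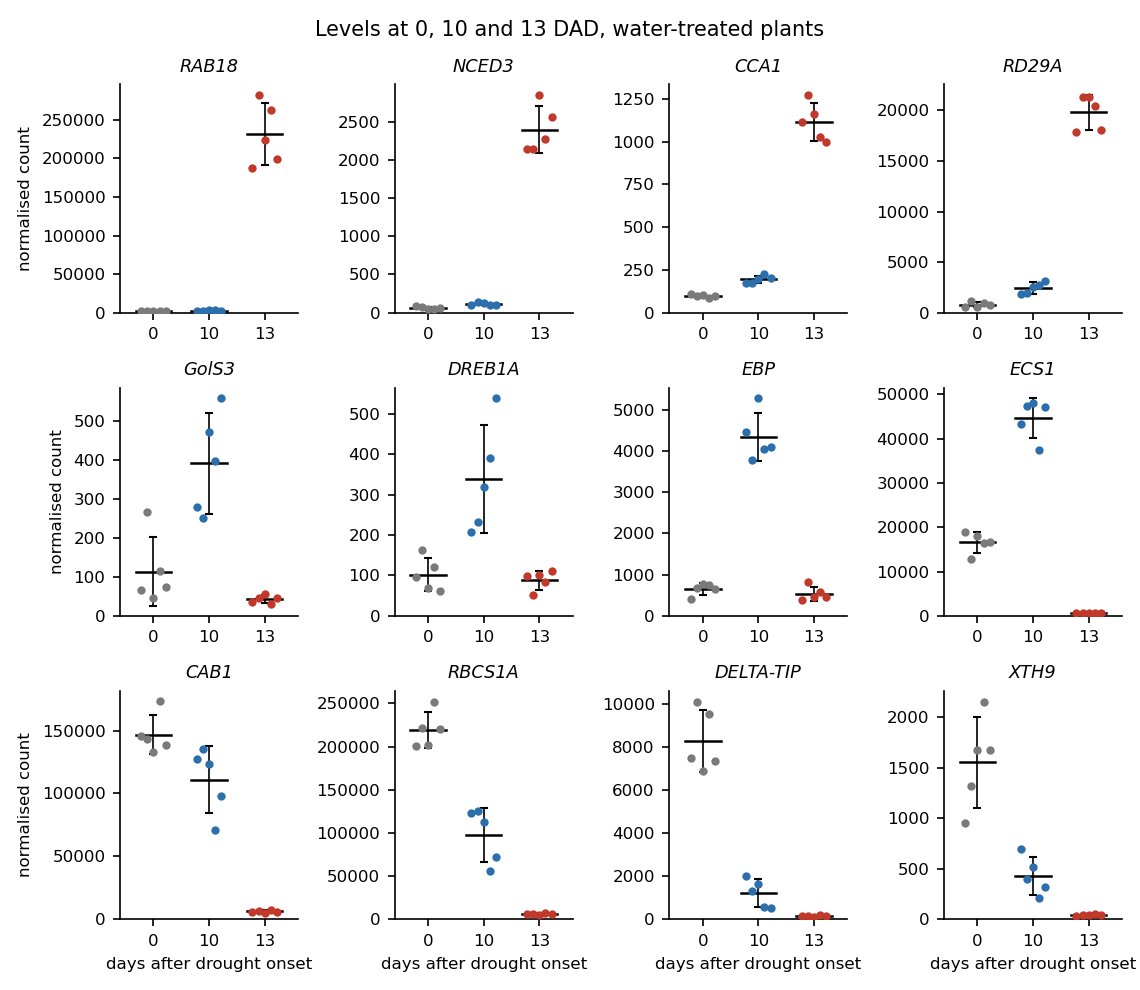
Normalised counts of 12 genes in water-treated plants at 0, 10 and 13 DAD, on linear axes that start at 0, with a point for each library, a horizontal line at each mean and bars for the SD (n = 5 each). RAB18, NCED3 and RD29A stand far higher at 13 DAD than at 0 or 10 DAD, GolS3, DREB1A, EBP and ECS1 are lower at 13 than at 10 DAD, and CAB1, RBCS1A, DELTA-TIP and XTH9 are lowest at 13 DAD.

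The late step was set against that of ethanol-treated plants with an interaction term over 20 libraries. Of 17083 genes tested, 2165 (12.7%) were called. The log2 step was higher in ethanol-treated plants than in water-treated plants in 1471 (8.61%) and lower in 694 (4.06%). With library size as the only scaling these counts were 2083 and 464. The share of higher calls was then 81.8% instead of 67.9%, and the median of all genes 0.25 instead of 0.07. RAB18 had a log2 step of 4.31 in ethanol-treated and 6.39 in water-treated plants (interaction -2.12 ± 0.40 SE, adjusted p = 0.000803). LEA7 had 4.36 and 6.74 (interaction -2.42), and ADH1 3.43 and 5.2 (interaction -1.81). The ethanol-treated libraries at 13 DAD were widely spread. RAB18 ran from 16401 to 84306 normalised counts there, LEA7 from 2481 to 31626 and ADH1 from 480 to 3184. Genes that fell were set side by side in the same way. PSBR had a step of -1.52 in ethanol-treated and -3.01 in water-treated plants (interaction 1.46, adjusted p = 0.00154), PMDH2 -1.47 and -3.29 and MYC2 -0.23 and -1.93. Of the 41 photosystem and antenna genes, 31 were called with a smaller fall in ethanol-treated plants and 0 with a larger one, beside the 8.61% and 4.06% of all genes. Without replicate 3 of the ethanol-treated plants at 13 DAD the number was 19. In other genes the step was more positive after ethanol. Of the 13 tested flavonoid and anthocyanin genes 11 were called with a higher step in ethanol-treated plants and 0 with a lower one. DFR had 5.25 in ethanol-treated and 3.16 in water-treated plants (interaction 2.06, adjusted p = 0.00267), F3H 5.04 and 3.24, and ABF3 2.54 and 0.84 (interaction 1.67, adjusted p = 1.21e-05). PAP1 had 1.54 and -1.77, opposite in sign (interaction 3.27, adjusted p = 0.0038). These 4 genes were chosen after their values were seen. Only some lists are given here, and others differed. Of 23 tested dehydrin, LEA and cold-regulated genes 2 were called with a higher step after ethanol and 7 with a lower one. Of 14 tested heat shock genes the counts were 0 and 4. Of the 9 clade A PP2C genes and the 10 tested NAC factors 0 were called in either direction. The interaction contains the same water-treated libraries as the late step itself. NCED3 had 4.28 and 4.33 and its interaction of -0.09 was not called (adjusted p = 0.879), nor was that of ABF2 (-0.34, adjusted p = 0.218).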

How the data were processed

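Shoot RNA of water-treated plants was measured by Lasy-Seq, an RNA-seq method, in 5 libraries at 13 DAD and 5 at 10 DAD, with groups and replicate numbers taken from the labels. The authors trimmed the R1 reads with Trimmomatic, mapped them to TAIR10 with HISAT2 and made raw counts per gene with featureCounts, using the read strand, the primary alignment only, and counting a read for every gene it overlaps. The deposited normalised counts are a signal that the authors scaled with 1 size factor for each library, and levels of single genes are given in them. The labels and the methods differ in the RNA kit and in the days on MS medium. All 35 columns matched a sample, leaving 0 without one.

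From the raw counts, R 4.3.3 with edgeR 4.0.16 (TMM, filterByExpr, robust quasi-likelihood F-test, Benjamini-Hochberg adjustment over all genes) was fitted on the 10 libraries, or on 20 for the interaction with ethanol. A call needs an FDR under 0.1 and 1 or more on the log2 scale. SE is the log2 fold change over the square root of F. Every adjusted p of a gene is from this edgeR test. Where every library of a group had 0 counts the fold is a bound against a floor of 3 counts per library. The late step of genes that never passed 3 counts on 1 of the days is given by their levels. List medians are given also with such members at that floor. Of the 27417 gene IDs, 26720 matched the TAIR10.1 annotation, used for names, and 68 of 68 positions given by the study overlapped the same gene, so its coordinates are printed. Promoters are the 250 bases before the annotated start, and copies (95% identity over 100 bases) were searched with BLAST 2.17.0.

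Named genes are the 10 largest changes per direction without overlap and with a mean of 20 or more counts, the 5 most abundant genes per day, 13 genes the study names, and up to 3 members per list and direction, or all members of short lists. Other members named were chosen after their values were seen. The members and lists were chosen with earlier results of these data known. The procedure was tested on simulated data for this comparison, where it recovered 188 of 200 changed genes and called 3 unchanged ones among 15675 genes. The changed genes there were few, as many up as down, and not among the least expressed. The simulation therefore does not show how the test performs where 43.6% of genes are called and more fall than rise. Alternatives were DESeq2 1.42.0, other scaling and filters, other sample sets, a replicate block, an FDR under 0.05 and each library left out. Total counts of 4543437 to 8172256 per library limit genes with few reads.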

Additional observations from a re-analysis of the deposited data

Results flagged for a closer look

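Libraries far from the other 4 of their group were looked for in 492 groups of 5, the genes named in the text and the library measures on both days, and 29 were found, where chance gives about 1 in 20 groups. In water-treated plants at 13 DAD, replicate 2 was the highest in AT1G07590 (193936 normalised counts, and 105634 to 127280 in the others), CAT1 (3086), ALDH2B4 (5055), RD26 (8000), AHG1 (427), PYL1 (97.3), PDF1.2 (615), PDF1.2c (1070) and AT2G22122 (8.85), and the lowest in EXPA9 (17.7). Replicate 4 was the highest in EDS16 (19.7) and GAMMA-TIP (444), replicate 1 in ARR6 (36.1) and AT4G19430 (6.02), and replicate 3 was the lowest in DELTA-TIP (118) and HSFA6A (265). At 10 DAD, replicate 1 was the lowest in NRT1.5 (42.2), SIP1 (66.8), ABI2 (83.1) and IAA29 (26.9) and the highest in AT3G03240 (1.17). Replicate 4 was the highest in GolS4 (13.6) and MYB90 (410) and the lowest in CYP707A3 (3.15) and RPE (2473). Replicate 2 was the highest in HSP17.4 (20.7) and SAG12 (212), and replicate 5 in PAD4 (118) and AT5G64170 (891).

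Of 47 genes looked up, named by size, abundance or the study or, in 4 cases, added after their values were seen, 32 had a late step that differed between ethanol-treated and water-treated plants in the edgeR interaction test, against a background of 12.7% of genes. The values are the log2 step of ethanol-treated minus that of water-treated plants. In 14 genes the ethanol step was below the water step, namely SMP1 at -2.61, AT3G03240 at -5.39, AT2G33520 at -3.84, TSPO at -1.8, RAB18 at -2.12, AT1G07590 at -1.34, COR15A at -1.18, GRP-3 at -1.53, LTI30 at -1.94, LEA7 at -2.42, DREB2A at -1.77, LTI65 at -1.26, P5CS1 at -1.45 and ADH1 at -1.81. In the other 18 it was above, namely SAUR24 at 2.93, AT5G35480 at 1.76, AT2G25510 at 1.94, AT5G42530 at 1.11, ECS1 at 1.77, AT2G22122 at 1.88, CAB1 at 1.05, LHB1B2 at 1.75, RBCS1A at 1.09, PSBR at 1.46, GolS3 at 1.49, MYC2 at 1.67, DREB1A at 1.69, PMDH2 at 1.79, and the 4 added genes DFR at 2.06, F3H at 1.77, PAP1 at 3.27 and ABF3 at 1.67. Most of these genes were chosen by their step in water-treated plants, whose libraries also enter the interaction, and the added ones by the interaction itself, so nothing is read from their number. The calls of SMP1 (adjusted p = 0.0921) and COR15A (adjusted p = 0.0817) were lost at an FDR under 0.05.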

How the results depend on the processing

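The 10 main results (the counts of calls and of genes without overlap, and the 4 library measures) were recomputed, giving 148 values. The 4 library measures kept their direction and their side of the threshold with each library left out. The counts have no such threshold and are given by their values. Genes without overlap numbered 4428 above and 4292 below at 13 DAD. They numbered 4213 and 4468 with TMM factors and 3884 and 4483 with library size only, so the larger side changed. Genes called lower outnumbered those called higher in every setting. Genes called higher and lower at 13 DAD numbered 2839 to 3117 and 4077 to 4291 with 1 library left out, 3344 and 5166 with DESeq2, 3715 and 5335 with every gene of at least 1 count, 2533 and 3531 with a mean of 20 or more counts, 2707 and 4157 with library size as the only scaling, and 3140 and 5047 with all 7 groups in one fit. Leaving out replicates 1 and 2 at 10 DAD gave 2971 and 4164, and leaving out replicates 4 and 5 gave 3261 and 4181, both choices made after seeing the data. The interaction calls ranged from 1155 to 1667 above and from 589 to 840 below with 1 library left out. The difference in total counts was then 354400 to 1138000, that in the chloroplast share -1.44 to -1.26 points, that in the share of the 10 leading genes 2.59 to 3.33 points and that in genes with a count -446 to -200.

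Of 286 single genes of the late step, 26 changed a call somewhere. PDF1.3 and PDF1.2c turned to 0.24 and 0.5 without replicates 1 and 2 at 10 DAD, where PDF1.2 came to -0.58, PDF1.2b to -0.99 and KCS1 to -0.79. Genes near the threshold lost their call with 1 library left out, DIN10 at -0.97 to -0.85 without replicate 3 at 10 DAD or 1, 4 or 5 at 13 DAD, FLS1 at -0.94 to -0.77, CESA1 at -0.98 to -0.93, KCS1 at -0.98 without replicate 2 at 10 DAD and SNRK2.2 at -0.99 without replicate 1 at 13 DAD. Without replicates 4 and 5 at 10 DAD, RCAR1 came to -0.85, SNRK2.2 to -0.98, CESA1 to -0.91 and CESA4 to -0.96. SAG12 came to 1.56 there (adjusted p = 0.176 in the edgeR test), and all of these lost their call. Others gained one, OZS1 at -1.07 to -1.01, PRR7 at -1.02 to -1.01, CAT2 at 1.0 to 1.04, CP12-1 at -1.02 and EXPA15 at -1.07. PR1 reached -1.85 (adjusted p = 0.0318) without replicates 4 and 5 at 10 DAD. Of 88 list counts, 23 moved by over 1.5 times under some setting. Cell division genes called lower numbered 4, and 11 with DESeq2, 14 with the 3 water groups and 15 with all 7 groups in one fit, where more of the list was tested. Defence genes called lower numbered 11, and 6 without replicates 1 and 2 at 10 DAD. Flavonoid and anthocyanin genes with a higher step after ethanol numbered 10 to 13 under all settings, and photosystem and antenna genes 19 to 37. Of 47 genes looked up for the interaction, 14 changed a call somewhere, among them SMP1, COR15A, CAB1, RBCS1A and LTI65. The causes were not tested.

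The replicate numbers showed no shared signal between the days. Correlations of deviations from the group means ran from -0.0807 to 0.0453 for the same number at 13 and 10 DAD. For different numbers they ran from -0.0484 to 0.0795. Whether equal numbers shared pots or processing was not tested. With a replicate block 2878 genes were called higher and 4071 lower, the interaction had 1405 and 687, and PDF1.2b, PDF1.2, PDF1.3, PDF1.2c and SAG12 lost their call (adjusted p = 0.166, 0.253, 0.414, 0.415 and 0.165). Of 27417 genes 15856 could be tested. The rest, among them 16 of 22 cell division genes and 7 of 14 ABA receptors, had too few counts, and low expression and low depth cannot be told apart there.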
